A study of Mus musculus with 5 samples.

Results

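The genes described here carry glucose through glycolysis and handle its end products, lactate and pyruvate, in mouse retinas taken after optic nerve crush (ONC). They were chosen by gene symbol from a list of 36. Of the 36 symbols, 35 named a row of the counts, out of 25655 gene rows, and all 35 passed the filter on low counts that left 14992 genes for the test. The symbol of the muscle type aldolase was not among the rows under its plain name, and its counts, listed in a pair of numbered rows, are given beside the members but not counted with them.

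Glycolysis turns 1 glucose into pyruvate in the cytosol and yields ATP and NADH. Pyruvate is then either reduced to lactate by lactate dehydrogenase, which restores NAD+, or carried into mitochondria and oxidised by the pyruvate dehydrogenase complex, which pyruvate dehydrogenase kinases switch off. The retina is known for making lactate even when oxygen is present. Photoreceptors are held to be a main site of this aerobic glycolysis. Lactate leaves and enters cells through monocarboxylate transporters, some of which need the chaperone basigin.

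Total RNA of the injured whole retina was sequenced 7 days after ONC from wild-type C57BL/6 mice, of both sexes and 8 to 10 weeks old by the study's methods. The mice had received Sorbinil, an aldose reductase inhibitor, at 10 mg/kg into the peritoneum, or the vehicle DMSO, from the day before the crush and daily after it. There were 3 retinas from DMSO mice, replicates 1, 2 and 3, and 2 from Sorbinil mice, replicates 1 and 3, all crushed, and a further Sorbinil replicate that the authors excluded was not analysed here. Aldose reductase draws on the same glucose as glycolysis, and the comparison asks how the glycolytic genes stood in retinas given the inhibitor. The study counts its RNA sequencing groups in mice and crushed only the left eye, so each retina stands for 1 mouse.

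Totals ran from 56096541 to 90288552 counts per retina. The members held 2.03%, 2.01% and 2.10% of them in DMSO replicates 1, 2 and 3. In Sorbinil replicates 1 and 3 they held 1.82% and 1.81%. A member's count in 1 retina lay between 61 and 369737, and 30 members had at least 1000 counts in every retina, so that counting error was small beside the spread between retinas for these 30. Levels are CPM, with each library scaled by its TMM factor. The factor was 0.854 in Sorbinil replicate 1 and 0.991 to 1.07 in the other retinas. On that scale the members summed to 18928.5, 19478.3 and 21153 CPM with DMSO. They summed to 21281.2 CPM in Sorbinil replicate 1 and 16900.4 CPM in Sorbinil replicate 3. In rod and Müller glia markers, Sorbinil replicate 1 stood apart from the other 4 retinas. Its summed CPM of 15 rod markers was 161100, against 97020 to 116800 with DMSO and 83930 in Sorbinil replicate 3. Its 10 Müller glia markers summed to 2192 CPM, against 5714 to 6673 with DMSO and 6164 in Sorbinil replicate 3. Fold changes that rest on this retina are also given without it. Fewer cells of a type and less RNA per cell cannot be told apart in whole retina. No marker of the retinal cell types was at 0 in all retinas.

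The promoters of 2 members are shown first, that of Ldha, whose Sorbinil retinas lay on either side of the DMSO retinas, and that of Tpi1, the member with the smallest p-value. Each is the strand of the gene, 5′ to 3′, from 250 bases before to 50 bases after the start of the canonical transcript in GENCODE vM39 on GRCm39. Capitals mark the letters ACGTG or the reverse complement CACGT, the core of the element that hypoxia-inducible factors bind. The windows lie at chr7:46495013-46495312 on the plus strand for Ldha and chr6:124791210-124791509 on the minus strand for Tpi1.
Ldha: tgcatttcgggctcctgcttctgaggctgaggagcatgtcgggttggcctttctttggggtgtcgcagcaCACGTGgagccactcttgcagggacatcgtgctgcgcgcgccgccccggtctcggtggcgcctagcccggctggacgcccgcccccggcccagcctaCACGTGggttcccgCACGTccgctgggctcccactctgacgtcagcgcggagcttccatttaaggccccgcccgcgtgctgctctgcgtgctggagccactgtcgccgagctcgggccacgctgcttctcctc
Tpi1: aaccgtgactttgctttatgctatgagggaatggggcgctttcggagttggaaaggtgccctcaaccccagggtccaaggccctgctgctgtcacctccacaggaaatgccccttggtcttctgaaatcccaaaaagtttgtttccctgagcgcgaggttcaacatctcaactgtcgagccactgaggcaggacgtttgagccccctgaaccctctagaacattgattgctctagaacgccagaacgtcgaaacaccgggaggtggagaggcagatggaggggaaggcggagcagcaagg
The Ldha window held 5 matches, which begin 180, 179, 83, 82 and 69 bases before the start. Neighbouring positions are both strands of 1 palindrome, CACGTG. The Tpi1 window held none. Over all members, 14 of 35 windows (40%) held at least 1 match on either strand, compared to 20.7% of 21738 protein-coding promoters, and 6 of 35 (17.1%) held CACGTG, compared to 7.82%. The 14 were Hk2, Pfkm, Pfkp, Gapdh, Pgk1, Pgam1, Ldha, Slc16a1, Slc16a7, Bsg, Pdhb, Pdk2, Gpd1 and Gpd2. The background held protein-coding genes whether or not they passed the filter on low counts, while all 35 members passed it. It was not matched for expression or base composition. A match is a stretch of letters, and no binding was measured.

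Pkm, Eno1 and Gapdh, of lower glycolysis, had the highest levels per kilobase of canonical transcript. The mean over the 5 retinas was 1653 CPM for Pkm (pyruvate kinase), 1396 CPM for Eno1 (enolase) and 1229 CPM for Gapdh, which makes NADH. Ldha followed at 696 CPM, Pgam1 (phosphoglycerate mutase) at 595 CPM and Bsg (basigin) at 468 CPM. Pkm exceeded Eno1 and Gapdh in all 5 retinas, while Eno1 exceeded Gapdh in all but Sorbinil replicate 1. The order depends on the transcript length, because with all annotated exons merged Pgam1, Bsg and Pkm took the first 3 places. At the other end stood Gpd2 at 1.61 CPM, Slc16a7 at 0.993 CPM and Gpd1 at 0.889 CPM per kilobase, and with merged exons Pfkfb4 ranked below Gpd2 and above the other pair. The 1st numbered aldolase row measured 2110 CPM per kilobase, more than any member on the canonical length.

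**Figure D1:**
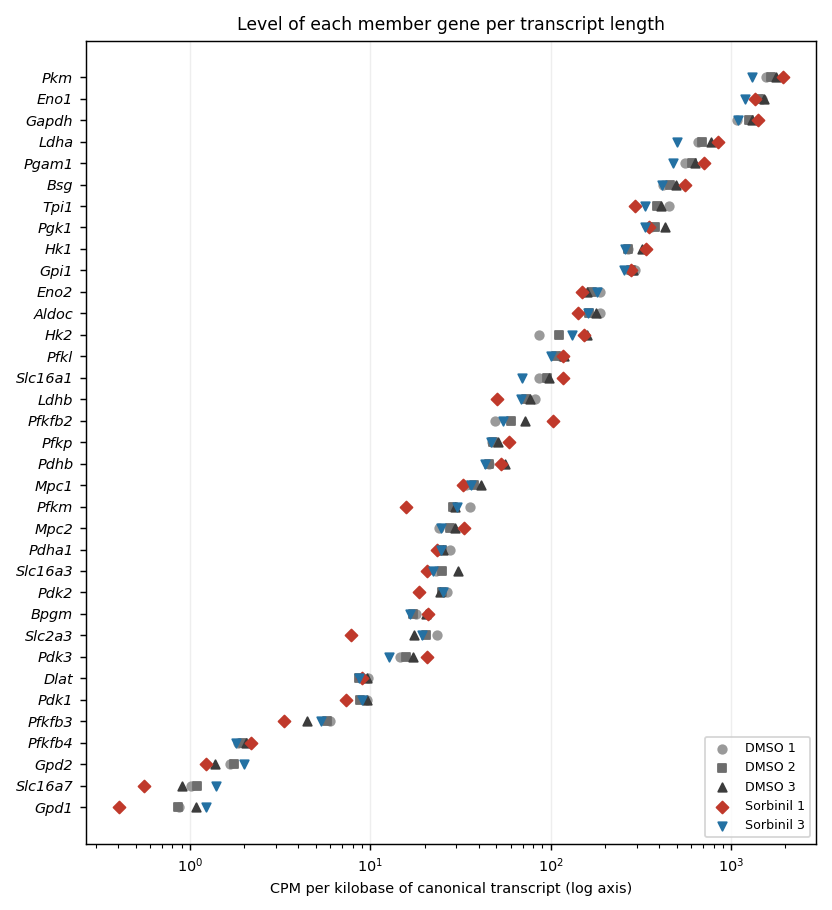
Level of each member gene in each retina, in CPM per kilobase of canonical transcript on a log axis, ordered by the mean over 5 retinas. Members span from 0.889 (Gpd1) to 1653 (Pkm), and the 5 retinas of a gene lie close together beside that span.

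Compared with DMSO, no member passed the threshold that the study set, at least 2-fold with an unadjusted p of 0.1 or less, by edgeR's quasi-likelihood test, while 1.71% of all genes tested did. With an unadjusted p of 0.1 or less and any fold, 2 members were lower with Sorbinil, Tpi1 and Ldhb, or 5.71% of the members beside 4.33% of all genes. None was higher, beside 6.98% of all genes. Only Tpi1 was under 0.05. With Benjamini-Hochberg adjustment over all genes 0 members passed 0.05 by edgeR and 0 by the DESeq2 Wald test, which called 21 genes in all. The share of members lower at that p-value is near the background of all genes.

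The fold changes of the members were small. On the log2 scale they ran from -0.58 (Slc2a3) to 0.39 (Pfkfb2), with a median of -0.07 and quartiles of -0.20 and 0.02, against a median of -0.01 and quartiles of -0.26 and 0.18 over all genes tested. Of the 35, 23 were negative and 12 positive, and library size alone as the scale, which moved the median of all genes to -0.11, put 10 of the small positive values below 0. Standard errors ran from 0.11 to 0.48 with a median of 0.18. The 95% interval of 31 members excluded a 2-fold change in either direction. That of the remaining 4, Slc2a3, Pfkm, Pfkfb2 and Gpd1, reached it, so their data allow a change of that size.

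**Figure D2:**
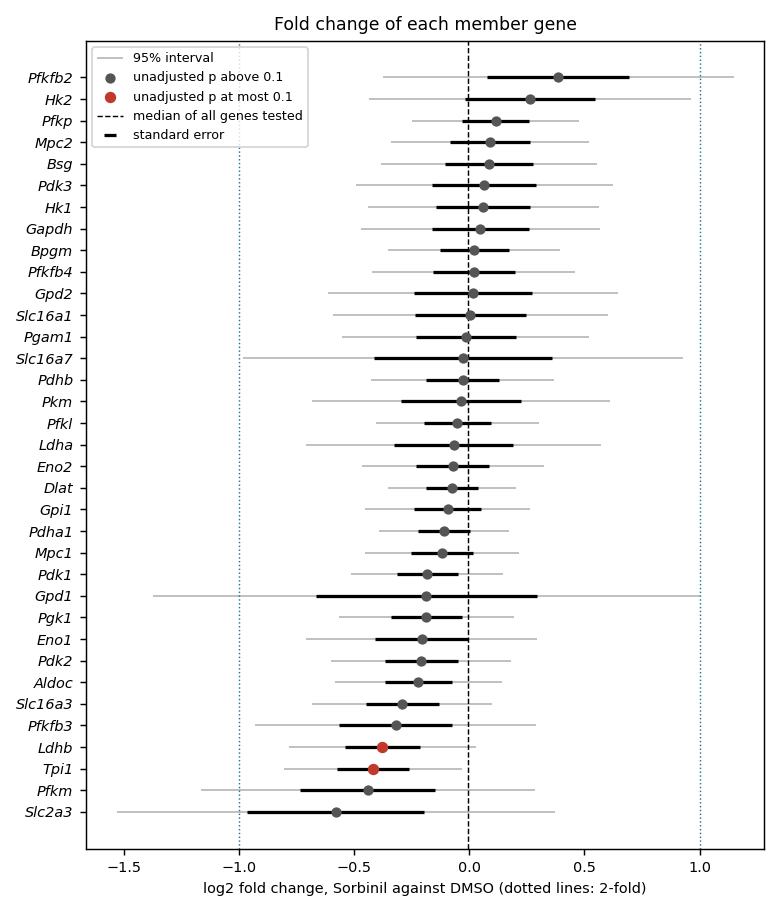
Log2 fold change of each member, Sorbinil against DMSO, from edgeR's quasi-likelihood fit, with its standard error (thick) and 95% interval (thin). Tpi1 and Ldhb have an unadjusted p of 0.1 or less, and the dashed line is the median of all genes, -0.01.

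In 7 members (20%) both Sorbinil retinas lay below all 3 DMSO retinas, and in 0 members both lay above. Over all genes tested these shares were 10.5% and 12.8%. The 7 were Aldoc, Tpi1, Pgk1, Eno1, Ldhb, Slc16a3 and Pdha1, which stand at different steps of the pathway. In the other 28 members the groups overlapped. Among the 7 the gap could be narrow, as in Pdha1 (70.9 against 71.2 CPM) and Aldoc (447 against 454 CPM). These placings were taken on the TMM scale alone.

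Glucose enters cells through transporters, among them GLUT3 of neurons, encoded by Slc2a3, and hexokinases trap it as glucose 6-phosphate. Slc2a3 measured 92.3, 80.2 and 69.0 CPM in DMSO replicates 1, 2 and 3, and 30.9 and 76.6 CPM in Sorbinil replicates 1 and 3. The low value belongs to Sorbinil replicate 1 alone, and the other Sorbinil retina lay within the DMSO range. The log2 fold change was -0.58 (standard error 0.38, unadjusted p = 0.183 by edgeR), and it was -0.06 without Sorbinil replicate 1.

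Hk1, the widespread hexokinase, stood at 1154, 1147 and 1369 CPM with DMSO and at 1450 and 1100 CPM with Sorbinil. One Sorbinil retina was above and the other below the DMSO range. Hk2, the hexokinase known from rods, was the member with the widest DMSO range, 1.83-fold, at 673, 870 and 1233 CPM, and the Sorbinil retinas at 1195 and 1026 CPM lay inside it. The log2 fold changes were 0.06 for Hk1 and 0.26 for Hk2, with standard errors of 0.20 and 0.28. Without Sorbinil replicate 1 they were -0.14 and 0.16.

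Upper glycolysis turns glucose 6-phosphate into triose phosphates at the cost of ATP, and phosphofructokinase is its main point of control. The median log2 fold change over its 6 members was -0.16, and 5 were negative. Tpi1, triose phosphate isomerase (ENSMUSG00000023456), is encoded on chromosome 6, minus strand, between 124787549 and 124791273. It measured 730.4, 628 and 657 CPM with DMSO and 469 and 536 CPM with Sorbinil. Both Sorbinil retinas were below every DMSO retina, replicate 1 by more. By edgeR the log2 fold change was -0.42 (standard error 0.16, unadjusted p = 0.0379, adjusted p = 0.758). The exact permutation test, two-sided, gave p = 0.1, the smallest that 2 retinas against 3 allow. Without Sorbinil replicate 1 the log2 fold change was -0.31. Leaving out DMSO replicate 1 gave -0.35, and the unadjusted p by edgeR, 0.144, was then above 0.1. Exons of Spsb2 (38 bases, a mean of 221 counts) and of a long noncoding RNA overlap Tpi1 on the other strand, and whether the counting used strand is not given.

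Phosphofructokinase has 3 genes. Pfkl, the liver type, was at 459.5, 439 and 486 CPM with DMSO and at 478.5 and 412 CPM with Sorbinil. Pfkp, the platelet type, was at 203, 206 and 221 CPM with DMSO and at 253 and 202 CPM with Sorbinil. Pfkm, the muscle type, was at 143, 115 and 117 CPM with DMSO and at 62.8 and 121 CPM with Sorbinil. For Pfkm, Sorbinil replicate 1 lay at -0.99 on the log2 scale against the DMSO mean, and replicate 3 within the DMSO range. The log2 fold change of Pfkm was -0.44 (standard error 0.29, unadjusted p = 0.185 by edgeR), and -0.03 without Sorbinil replicate 1. Exons of Senp1 lie opposite parts of Pfkm, those of Cfap410 opposite Pfkl and those of Pitrm1 opposite Pfkp.

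Aldoc, the brain type of the aldolase that splits fructose 1,6-bisphosphate, measured 526, 454 and 498 CPM with DMSO and 397 and 447 CPM with Sorbinil. Both Sorbinil retinas were below the DMSO range, replicate 3 narrowly, at a log2 fold change of -0.22 (standard error 0.15, unadjusted p = 0.183 by edgeR). The 1st aldolase A row stood at 3169, 3247 and 3425 CPM with DMSO and at 3583 and 2519 CPM with Sorbinil, 1 retina above and 1 below the range. The 2nd row held only 11 to 35 counts per retina. It was higher in both Sorbinil retinas and passed the study's threshold (log2 fold change 1.01, unadjusted p = 0.0575 by edgeR), and what separates the rows is not stated in the sources used here. Gpi1, which converts glucose 6-phosphate to fructose 6-phosphate, varied least among DMSO retinas of all members (1.06-fold), at a log2 fold change of -0.10.

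Fructose 2,6-bisphosphate switches phosphofructokinase on, and the Pfkfb enzymes make and break it. Pfkfb2 was at 149.7, 183 and 220.3 CPM with DMSO and at 316 and 166 CPM with Sorbinil. Pfkfb3 was at 33.8, 32.7 and 25.3 CPM with DMSO and at 18.8 and 30.1 CPM with Sorbinil. Sorbinil replicate 1 was the highest retina for Pfkfb2 and the lowest for Pfkfb3, while replicate 3 lay inside the DMSO range for both. The log2 fold change of Pfkfb2 was 0.39 (standard error 0.31, unadjusted p = 0.259 by edgeR), and -0.14 without Sorbinil replicate 1. For Pfkfb3 it was -0.32 (standard error 0.25, unadjusted p = 0.242), and -0.01 without that retina. Pfkfb4, at 6.26 to 7.57 CPM, had a log2 fold change of 0.02. Exons of Yod1 and of a second coding gene, Gm29427, overlap Pfkfb2.

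Lower glycolysis makes the ATP and ends in pyruvate. Its 7 members had log2 fold changes between -0.21 and 0.05, and none reached an unadjusted p of 0.1. Eno1, the widespread enolase, was at 3409, 3255 and 3483 CPM with DMSO and at 3118 and 2737 CPM with Sorbinil. Both Sorbinil retinas were below every DMSO retina, and the log2 fold change was -0.21 (standard error 0.20, unadjusted p = 0.345 by edgeR, exact permutation p = 0.1). Eno2, the neuronal enolase, was at 525, 476 and 447 CPM with DMSO and at 414 and 503 CPM with Sorbinil, with overlapping groups. Pgk1, phosphoglycerate kinase, was below the DMSO range in both Sorbinil retinas at 638 and 607 CPM, against 658 to 781.5 CPM. Its log2 fold change was -0.19 (standard error 0.15).

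For Pkm, Pgam1, Gapdh and Bpgm (which makes 2,3-bisphosphoglycerate) Sorbinil replicate 1 lay above the DMSO range, and replicate 3 lay below it, or within it for Gapdh. Pkm was at 4764 CPM in replicate 1 and 3201 CPM in replicate 3, with 3824 to 4335 CPM under DMSO. Pgam1 was at 1267 and 858 CPM, with 1003 to 1131 CPM under DMSO. Their log2 fold changes, -0.04 and -0.01, with standard errors of 0.26 and 0.22, average over these opposite retinas. Without Sorbinil replicate 1 they were -0.34 and -0.31, and Gapdh and Bpgm both stood at -0.14.

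Lactate dehydrogenase joins A and B subunits, the A type known from tissues that make lactate and the B type from those that use it. Ldha (ENSMUSG00000063229) is on chromosome 7, plus strand, between 46490899 and 46505061, and Ldhb (ENSMUSG00000030246) on chromosome 6, minus strand, between 142435672 and 142454586. Ldhb was at 125, 111 and 118 CPM with DMSO and at 77.2 and 104 CPM with Sorbinil. Both Sorbinil values were under the DMSO range. By edgeR the log2 fold change was -0.38 (standard error 0.16, unadjusted p = 0.063, adjusted p = 0.758). It was -0.17 without Sorbinil replicate 1 (unadjusted p = 0.194) and -0.61 without Sorbinil replicate 3. When a DMSO retina was left out, the unadjusted p ran from 0.11 to 0.166. No other annotated gene shares exons with Ldhb. Ldha was at 1048, 1103 and 1229 CPM with DMSO and at 1347 and 799.9 CPM with Sorbinil. The Sorbinil retinas bracketed the DMSO retinas, 1.68-fold apart, and the log2 fold change was -0.07 (standard error 0.26, unadjusted p = 0.798), or -0.48 without Sorbinil replicate 1.

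Monocarboxylate transporters move lactate and pyruvate across membranes. Slc16a1 (MCT1) was at 397.5, 441 and 451 CPM with DMSO and at 540.3 and 321 CPM with Sorbinil, above and below the range as for Ldha. Slc16a3 (MCT4), an exporter of highly glycolytic cells, was at 108, 118 and 143 CPM with DMSO and at 96.5 and 105 CPM with Sorbinil, both below. Slc16a7 (MCT2), of high affinity for lactate, was at 11.1, 12.1 and 9.94 CPM with DMSO and at 6.14 and 15.5 CPM with Sorbinil. Slc16a7 thus had the reverse order to Slc16a1 in the Sorbinil retinas. The log2 fold changes were 0.00 for Slc16a1, -0.29 for Slc16a3 (standard error 0.16, unadjusted p = 0.117 by edgeR) and -0.03 for Slc16a7. Without Sorbinil replicate 1 they were -0.41, -0.22 and 0.50. For Slc16a3 the value also depended on the DMSO retinas, at -0.17 without DMSO replicate 3 and -0.375 without DMSO replicate 1. Bsg was at 1003 and 752 CPM with Sorbinil against 759 to 894.5 CPM with DMSO. Csnk1d lies opposite 4529 exon bases of Slc16a3 and carried a mean of 6729 counts.

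Pyruvate enters mitochondria through the carrier of Mpc1 and Mpc2, and Pdha1, Pdhb and Dlat encode parts of the complex that oxidises it. Log2 fold changes of these 5 genes ran from -0.12 to 0.09. Mpc1, the one farthest from 0, was at 38.1, 42.2 and 46.3 CPM with DMSO and at 36.7 and 41.1 CPM with Sorbinil, and the groups overlapped. Pdha1 was below the DMSO range at 67.0 and 70.9 CPM, against 71.2 to 79.4 CPM, a log2 fold change of -0.11 (standard error 0.11). Dlat and Pdhb were at -0.08 and -0.03, and Mpc2 was at 0.09, or -0.13 without Sorbinil replicate 1. Dcaf6 lies opposite 994 exon bases of Mpc2 and carried a mean of 4777 counts.

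None of the 3 kinases that inactivate this complex passed the test. Pdk1 was at 50.3, 46.4 and 50.3 CPM with DMSO and at 38.8 and 47.5 CPM with Sorbinil. Pdk2 was at 61.1, 57.9 and 56.4 CPM with DMSO and at 43.1 and 58.1 CPM with Sorbinil. Sorbinil replicate 1 was the lowest retina for both and replicate 3 was within the DMSO range. Pdk3 was instead highest in Sorbinil replicate 1, at 51.0 CPM, and lowest in replicate 3, at 31.1 CPM. The log2 fold changes were -0.18, -0.21 and 0.06, with unadjusted p = 0.221, 0.234 and 0.786 by edgeR. Leaving out Sorbinil replicate 1 gave -0.03 for Pdk1, 0 for Pdk2 and -0.32 for Pdk3. Samd14 lies opposite 1989 exon bases of Pdk2 and carried a mean of 7101 counts.

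The glycerol phosphate shuttle, which passes electrons from cytosolic NADH to mitochondria, was lowly expressed. Gpd1, the cytosolic enzyme, was at 2.49, 2.45 and 3.10 CPM with DMSO and at 1.16 and 3.52 CPM with Sorbinil, from 61 counts in Sorbinil replicate 1. Gpd2, the mitochondrial enzyme, was at 9.49, 10.1 and 7.87 CPM with DMSO and at 7.06 and 11.4 CPM with Sorbinil. In both genes replicate 1 was the lowest and replicate 3 the highest retina of the 5. The log2 fold changes were -0.19 (standard error 0.48) and 0.01 (standard error 0.26), and without Sorbinil replicate 1 they were 0.41 and 0.33.

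**Figure D3:**
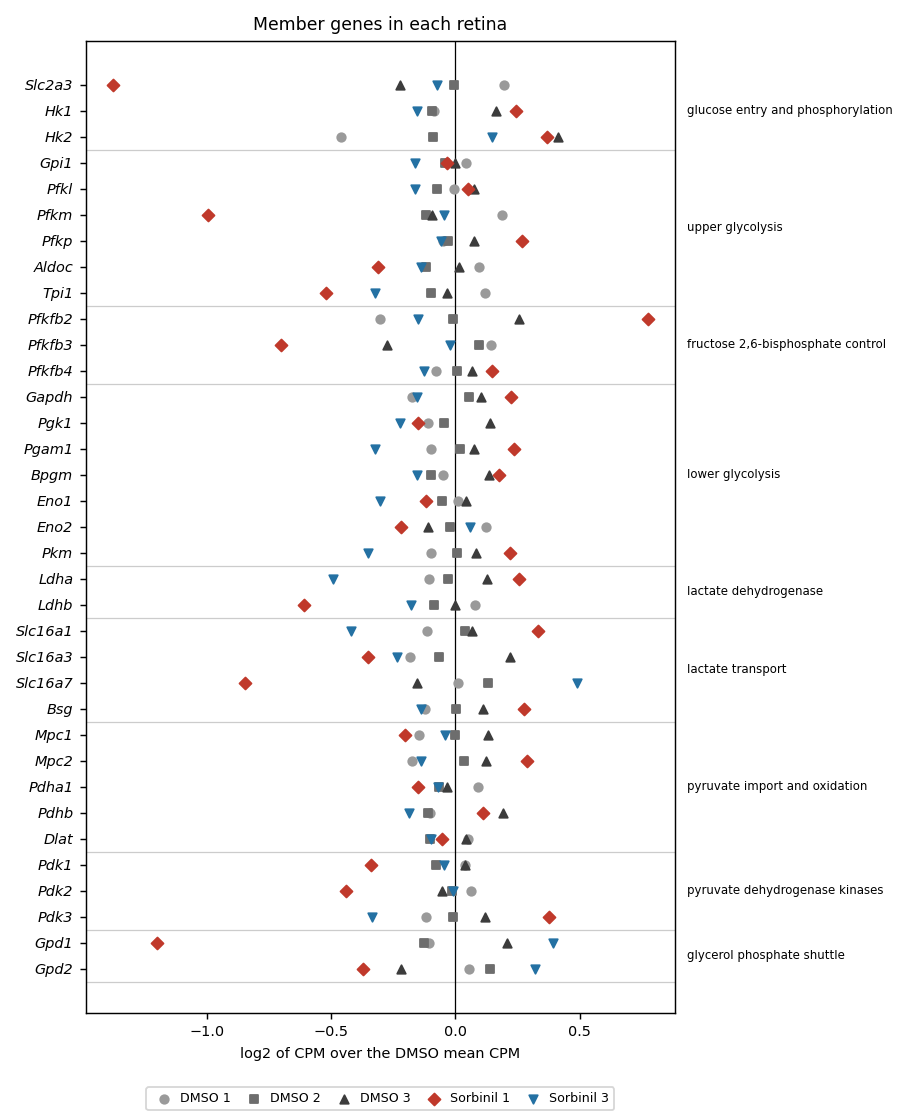
Each member gene in each retina, as log2 of its CPM over the DMSO mean CPM, grouped by role. Sorbinil 1 and Sorbinil 3 often lie on opposite sides of the grey DMSO points, as for Ldha (0.26 and -0.49) and Slc16a7 (-0.85 and 0.49).

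Ratios between genes of 1 step, taken on CPM per kilobase, show which isoform led and whether the balance moved. In every retina Ldha exceeded Ldhb, Eno1 exceeded Eno2, Hk1 exceeded Hk2, and Pfkl exceeded Pfkm and Pfkp. The log2 ratio of Ldhb to Ldha was -3.02, -3.25 and -3.33 in the DMSO retinas and -4.07 and -2.89 in the Sorbinil retinas. The Sorbinil values lay on either side of the DMSO values and 2.27-fold apart. The mean difference of -0.28 was well within that spread (exact permutation test, two-sided, p = 0.8).

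The log2 ratio of Slc16a7 to Slc16a1 differed from its DMSO mean by -1.18 in Sorbinil replicate 1 and by 0.91 in replicate 3, so that the Sorbinil retinas were 4.24-fold apart. For Pfkfb2 to Pfkfb3 the differences were 1.48 and -0.12, and for Pfkm to Pfkl -1.04 and 0.13. Of the 11 ratios, only Pfkp to Pfkl did not overlap between the groups. It was -1.25, -1.16 and -1.21 with DMSO and -0.99 and -1.10 with Sorbinil, a mean difference of 0.16 (exact permutation p = 0.1, unadjusted for the 11 ratios).

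**Figure D4:**
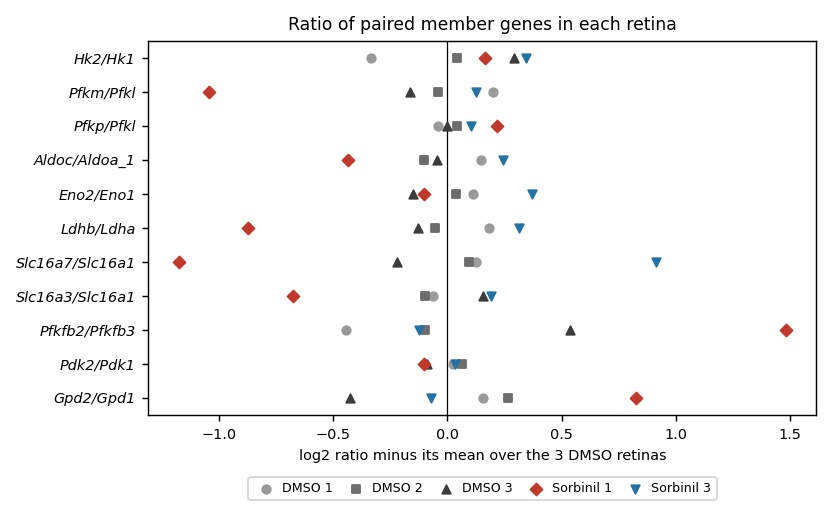
Log2 ratio of paired genes in each retina, less its mean over the 3 DMSO retinas, on CPM per kilobase. Sorbinil 1 is far from the DMSO retinas for Slc16a7/Slc16a1 (-1.18), Pfkm/Pfkl (-1.04) and Pfkfb2/Pfkfb3 (1.48), while both Sorbinil retinas are above DMSO only for Pfkp/Pfkl.

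The 2 Sorbinil retinas often lay apart from each other. Sorbinil replicate 1 was above the DMSO range in 13 members and below it in 17. Sorbinil replicate 3 was above it in 3 and below it in 20. In 10 members, Hk1, Pfkp, Pfkfb4, Pgam1, Bpgm, Pkm, Ldha, Slc16a1, Bsg and Pdk3, replicate 1 was above and replicate 3 below, and in 3, Slc16a7, Gpd1 and Gpd2, the order was reversed. The Sorbinil retinas were at least 1.5-fold apart in 10 members, and the DMSO retinas in 1, Hk2. The range among DMSO retinas had a median of 1.18-fold. The counts in this paragraph were not made over all genes. Whether the members differ from other genes in them was not tested.

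Markers of cell types also differed between the Sorbinil retinas. In Sorbinil replicate 1 the 15 rod markers had a median log2 level of 0.54 over the DMSO mean and the 9 cone markers 0.44, and in replicate 3 these were -0.32 and -0.21. The lists of Müller glia (10 genes), bipolar (10), amacrine (10), horizontal (5) and retinal ganglion cells (9), astrocytes (4), microglia (11), endothelium and pericytes (17) and pigment epithelium (9) had medians between -1.73 and -0.73 in Sorbinil replicate 1. In replicate 3 they lay between -0.39 and 0.08. The members as a whole were at -0.05 and -0.14. Between the groups, 14 of 15 rod markers were positive and 0 passed an unadjusted p of 0.1. Of the cone markers 8 of 9 were positive, and 0 passed. Over all genes tested 4.33% were lower and 6.98% higher at that p. All 17 endothelium and pericyte markers were negative and 8 passed, and 6 met the 2-fold threshold, beside 1.71% of all genes. The 17 summed to 186 and 475 CPM with Sorbinil against 372 to 566 CPM with DMSO. All 11 microglia markers were negative and 3 passed, at 124 and 209 CPM against 188 to 286 CPM. Lower genes that passed numbered 2 for retinal ganglion cells, 1 each for Müller glia and bipolar cells, and 0 for amacrine and horizontal cells, astrocytes and pigment epithelium. Red blood cell genes, of which 3 of 5 were tested, summed to 1.93 to 3.83 CPM. The DMSO retinas were not uniform either. Pigment epithelium markers summed to 106.9, 98.2 and 259 CPM in DMSO replicates 1, 2 and 3. In DMSO replicate 3 the median was 0.75 for pigment epithelium, -0.45 for retinal ganglion cells and -0.38 for microglia. Its other lists lay between -0.35 and 0.22. The part of these markers in the members' values was not tested.

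**Figure D5:**
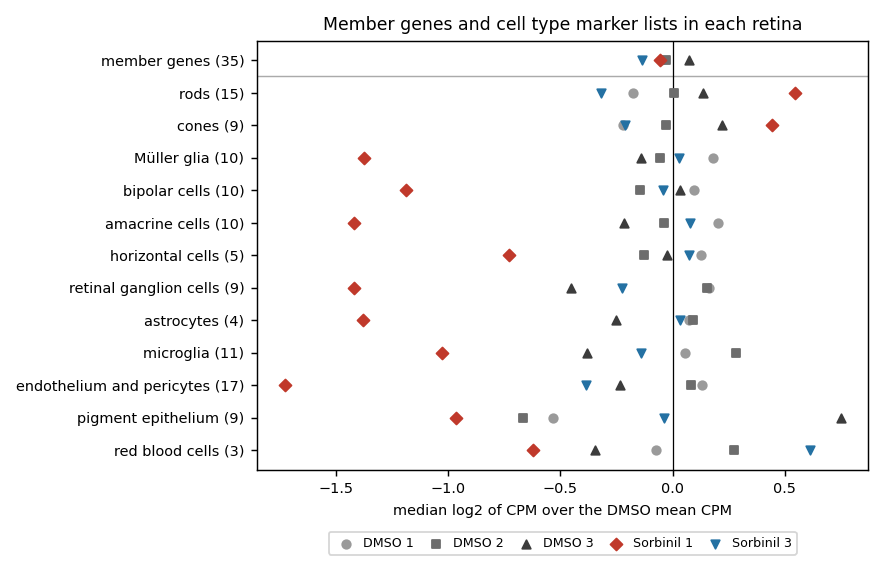
Median log2 of CPM over the DMSO mean CPM for the 35 members and for each cell type marker list, in each retina, with the number of genes tested in parentheses. Sorbinil 1 is at 0.54 for rods and 0.44 for cones and between -1.73 and -0.73 for the other lists except red blood cells (-0.62), while the members lie between -0.14 and 0.07.

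Leaving out either Sorbinil retina changed which members passed. With the remaining retina assumed to vary like the DMSO retinas, 7 members were lower (20%, beside 6.77% of all genes) and 1 higher (2.86%, beside 8.05%) with an unadjusted p of 0.1 or less when replicate 1 was left out. The 7 were Tpi1, Pgam1, Eno1, Pkm, Ldha, Slc16a1 and Pdk3, and the 1 was Slc16a7. When replicate 3 was left out, 12 were lower (34.3%, beside 30.5% of all genes) and 6 higher (17.1%, beside 28%). Slc2a3 and Gpd1 were then more than 2-fold lower, at -1.38 and -1.20. At that p, Tpi1 was lower in both cases, and Slc16a1, Slc16a7 and Pdk3 passed in both with opposite directions.

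Sex, read from Y-linked counts, was male in DMSO replicates 1 and 2 and Sorbinil replicate 1, and female in DMSO replicate 3 and Sorbinil replicate 3. Within males the median log2 difference of the members, Sorbinil minus DMSO, was -0.03, and within females, with 1 retina a group, it was -0.24. Of the 35 members, 11 (31.4%) were lower in both comparisons, beside 17.1% of all genes, 0 were higher in both, beside 18.5%, and 24 went opposite ways. Tpi1 was at -0.54 and -0.29, and Ldhb at -0.61 and -0.18. With a sex term in the model, chosen after the data were seen, Tpi1 (-0.43, unadjusted p = 0.0885 by edgeR), Ldhb (-0.42, unadjusted p = 0.0626) and Slc16a3 (-0.32, unadjusted p = 0.0788) were at an unadjusted p of at most 0.1, and 0 members were higher. At that setting 4.58% of all genes were lower and 5.3% higher. Sex and the retina cannot be told apart among the Sorbinil retinas. The share of mitochondrially encoded counts was also higher with Sorbinil, at 3.70% and 4.05% against 1.94% to 2.66%, and leaving those genes out kept the same 2 members.

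Of 30 further genes of glucose entry, glycolysis and pyruvate handling, 25 were tested, and 3 were lower and 2 higher at an unadjusted p of at most 0.1, with 0 at the 2-fold threshold. Over all genes 4.33% were lower and 6.98% higher at that p. Slc2a4 (GLUT4, the insulin-responsive glucose transporter) had the smallest p, at 1.16, 1.41 and 1.26 CPM with DMSO and 2.51 and 2.05 CPM with Sorbinil (log2 fold change 0.83, unadjusted p = 0.0187 by edgeR). Hkdc1 and Ldhd, lower, and Pdp2, higher, were among the others.

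Beside the same 4.33% lower and 6.98% higher over all genes, the pentose phosphate pathway had 1 of 8 genes higher, Rpia (0.48, unadjusted p = 0.0396), and the citric acid cycle 1 of 17 lower, Idh3b (-0.35, unadjusted p = 0.0211), a subunit of isocitrate dehydrogenase. Of the 7 genes of the malate-aspartate shuttle, the other route for cytosolic NADH, none passed, and Slc25a12 had the smallest unadjusted p (0.292). Of 13 targets of hypoxia-inducible factors outside glycolysis, 12 were tested and 3 were lower, Bnip3 (-0.35, unadjusted p = 0.0685), Egln3 (-0.56, unadjusted p = 0.0939) and Adm (-1.31, unadjusted p = 0.0914), by edgeR. Adm had 6 to 45 counts per retina and alone reached 2-fold.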

How the data were processed

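RNA-seq counts of 5 injured retinas were used (3 DMSO, 2 Sorbinil). Total counts per gene symbol, not normalized, were deposited by the authors, who had removed adaptors and aligned reads to GRCm39 in CLC Genomics Workbench at its defaults. The annotation release, the treatment of reads on several genes and the use of strand are not given in the sources used here, and errors there would be in the counts. Each column was assigned by its sample label, and 0 value columns were left out.

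From there, genes were filtered with filterByExpr (minimum count 10) and scaled by TMM, and Sorbinil was compared with DMSO by edgeR 4.0.16 (glmQLFit and glmQLFTest, R 4.3.3, limma 3.58.1) with Benjamini-Hochberg adjustment over 14992 genes. The study's threshold was kept. Intervals are 95%. Single genes and ratios had a two-sided exact permutation test over 10 groupings on log2(CPM + 0.01). No pair of retinas agreed within sampling noise (smallest chi-square over its degrees of freedom 22.1). Lengths, positions and promoters came from GENCODE vM39 on GRCm39. The members, and the pathway and marker lists, were chosen with earlier results of these data known. Values in every retina are given for members at p of at most 0.1, those of isoform pairs and the member with the largest change in each role. Of each pathway list, the gene with the smallest p is named, and others that passed were named after their values were seen. DESeq2 1.42.0, other filters, scalings and thresholds, a replicate block, a sex term and leaving out each retina were alternatives. The steps were tested on simulated data. Results of 1 gene of a pathway list and of the promoter of 1 member are not reported here.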

Additional observations from a re-analysis of the deposited data

How the results depend on the processing

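No member passed the 2-fold threshold under any alternative except without Sorbinil replicate 3 (range over left-out retinas 0 to 2). The 2 lower members at p of at most 0.1 became 4 with library size only and 1 at p of at most 0.05, and 1 to 12 when a retina was left out. The 0 higher members became 0 to 6. The members' median, -0.07, was -0.17 with library size only, where the median of all genes was -0.11, a shift of 0.10. The share of all genes lower at p of at most 0.1 was not counted with library size only. Over all genes, the 203 lower calls became 119 with the strict filter (at least 10 counts in every retina), 129 at p of at most 0.05, 0 at an adjusted p under 0.05 (751 genes had an unadjusted p under 0.05, and DESeq2 called 21) and 129 to 2656 when a retina was left out. The 54 higher calls became 115 with no filter, 29 with the strict filter, 33 with library size only, 0 at an adjusted p under 0.05 and 35 to 247 when a retina was left out. With no filter the lower calls numbered 293. The strict filter tests fewer genes and no filter tests more, but the causes of all these shifts were not tested. Members that turned direction and passed were Slc16a1, Slc16a7 and Pdk3 without Sorbinil replicate 1, and Gpd2 without Sorbinil replicate 3. Over left-out retinas Slc16a1 ran from -0.41 to 0.33, Slc16a7 from -0.85 to 0.50, Pdk3 from -0.32 to 0.38 and Gpd2 from -0.37 to 0.33. DESeq2 size factors, the DESeq2 Wald test, upper-quartile scaling, the likelihood ratio test and both other filters left Tpi1 and Ldhb as the 2 members that passed.

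Between retinas of the same replicate number the correlations of deviations were -0.20 and -0.09. With 2 pairs they cannot show whether the numbers pair the retinas. Both replicate 1 retinas were male and both replicate 3 retinas female. With the replicate block, 1 member was lower at p of at most 0.1, Slc2a3 (-0.71, unadjusted p = 0.0682 by edgeR), and Tpi1 (-0.47) and Ldhb (-0.43) were not past it. Depth limited Gpd1 most, at 61 counts in 1 retina.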
